A study of Oryza longistaminata with 15 samples.

Results

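The CENTRORADIALIS-like (CEN-like) genes *Os04g33570* and *Os11g05470* were measured in 5 tissues of the rhizomatous wild rice *O. longistaminata*. Each gene was read by 1 probe set, a group of short probes for 1 transcript (Os.8120.1.S1_at for *Os04g33570* and Os.49726.1.S1_at for *Os11g05470*), so the members are 2 of the 57194 rice probe sets and 2 of the 21303 tested. Both genes were chosen by name from the study's list of rhizome-tip-enriched genes, where they are annotated as CEN-like protein 2 and CEN-like protein 3. That list was made on these same arrays, so the level of either gene in the listed tip against the other tissues is given here as a description, without a test.

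There were 15 Affymetrix GeneChip Rice Genome Arrays, 3 for each tissue. The tissues of wild type plants, grown in a greenhouse and sampled at active tillering, were rhizome tip (RT, the last 1 cm of a young rhizome), rhizome internode (RI), shoot tip (ST, the last 5 mm of a tiller stripped of its leaves), shoot internode (SI) and young leaf (YL). The sample records call the replicates individual plants, while the study's methods describe the accession as kept as a single plant, so the p-values may cover only the spread between samplings of one genotype. No treatment or mutant was compared, and the probes were designed on *O. sativa* sequence.

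CEN-like proteins belong to the phosphatidylethanolamine-binding family, which also holds the florigen FT of *Arabidopsis* and its rice relatives. In *Arabidopsis* and snapdragon, TFL1 and CEN keep a shoot meristem indeterminate and delay its conversion to a flower. In *O. sativa* the same group is called RCN, with *Os11g05470* known as *RCN1* and *Os04g33570* as *RCN4*. Plants that overexpress *RCN1* flower late and branch more in the panicle, and rice RCN proteins compete with florigen for the same partner proteins.

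The letters available for both genes are the primers that the study designed for its RT-PCR. They are shown because they fix which transcripts were meant by each name. *Os04g33570* lies on chromosome 4 and its primers are both 21 bases long, while *Os11g05470* lies on chromosome 11 and its primers are both 22 bases long. The primers are written 5′ to 3′ as designed, and no base is marked in capitals.
Os04g33570 forward: ctttgggagggaggtggtgag
Os04g33570 reverse: gcttgaacagcacgaggacga
Os11g05470 forward: gggtgacctgcgatctttcttc
Os11g05470 reverse: ttacagtttgcctgcgcttctg
The GC content was 61.9% and 57.1% for the first pair and 54.5% and 50.0% for the second. The RT-PCR itself was not analysed here. The platform annotation gave no other probe set for *Os04g33570* and no gene at all for the probe set of *Os11g05470*, and the study's tables paired no other probe set with either locus. Of 4 rice genes on the TFL1/CEN-like list, these were the 2 that could be matched to a probe set, and the others may lie among the unnamed probe sets. Whether the probe set of *Os11g05470* also reads its close relative *RCN3* was not tested, since no probe sequence was used here.

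The labels of the tip arrays and the study's list did not point the same way. All 58 probe sets that the study listed as enriched in rhizome tips, both CEN-like genes included, had their highest mean signal on the arrays labelled ST. The 424 probe sets of its list of differences between the tips had the listed direction only when the ST-labelled arrays were taken as rhizome tips, and 0 of 424 had it with the labels as deposited. Every direction between the tips given here follows the deposited labels and is the opposite of the study's naming. The arrays are called ST-labelled and RT-labelled for that reason, and which of them held rhizome tips cannot be settled from the signals. Rice probe sets had a median signal of 21.9 to 23.5 on an array, and 17943 to 18834 of them were brighter than a cutoff of 49.6. This cutoff is the 95th percentile of 64 reporter control probe sets that match no rice gene, and a signal under it is called not above background. The number of arrays limits the precision of every value.

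Both CEN-like genes were bright on the ST-labelled arrays and dim or not above background elsewhere. *Os04g33570* had signals of 437, 458 and 420.1 on the ST-labelled arrays, a mean of 439 ± 19.2 (SD, n = 3). The 3 arrays lay close together, with an SD of 4.38% of the mean. On the RT-labelled arrays the same gene had signals of 80.6, 45.1 and 22.3 (49.4 ± 29.4), so that 1 of 3 arrays was above the cutoff. RI gave 36.0, 56.2 and 49.7 (47.3 ± 10.3), 2 of them over the cutoff, and these signals overlapped the RT-labelled ones. SI gave 10.6, 35.0 and 12.6 (19.4 ± 13.6), and YL gave 12.7, 7.52 and 8.62 (9.62 ± 2.75). None of these 6 arrays was above the cutoff, and the YL signals exceeded only 18 to 38 of the 64 reporter controls of their own array.

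*Os11g05470* had signals of 145, 129 and 167 on the ST-labelled arrays, a mean of 147 ± 18.9 (SD, n = 3). Its RT-labelled signals were 68.8, 19.7 and 51.4 (46.6 ± 24.9), 2 of them over the cutoff. Replicate 2 was the lowest of the RT-labelled arrays for this gene, whereas replicate 3 was the lowest for *Os04g33570*. RI gave 6.04, 38.9 and 20.2 (21.7 ± 16.5), and SI gave 6.69, 26.5 and 35.1 (22.8 ± 14.6). All 6 internode arrays were below the cutoff, and the spread within each internode tissue was wide, since the highest array exceeded the lowest 6.44-fold in RI and 5.24-fold in SI. YL gave 4.79, 5.04 and 4.98 (4.94 ± 0.132), the lowest signals of this gene on any arrays. The plot of the signals by tissue shows the ST-labelled arrays apart from all others for both genes.

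**Figure D1:**
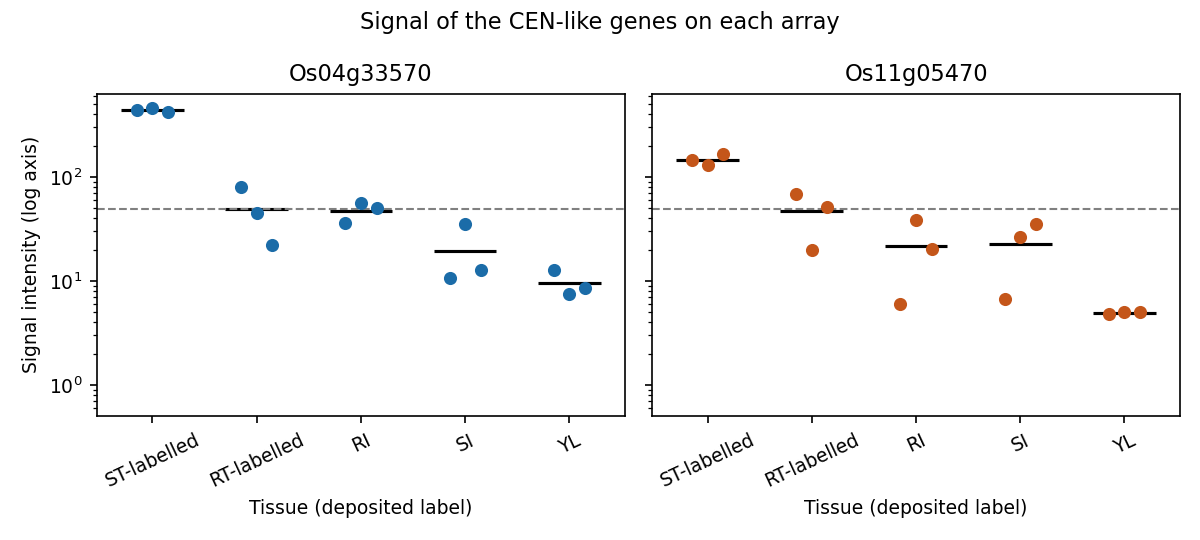
Signal of each CEN-like gene on each of the 15 arrays, by tissue, on a log axis (arbitrary intensity units). Points are single arrays, the horizontal bar is their mean (n = 3), and the dashed line is the cutoff of 49.6. The ST-labelled arrays of *Os04g33570* lie between 420.1 and 458 and those of *Os11g05470* between 129 and 167, above all other arrays of the same gene.

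By tissue, the order of mean signals for *Os04g33570* was ST-labelled, RT-labelled, RI, SI and YL. The ST-labelled arrays carried 77.7% of the sum of the 5 tissue means, and the RT-labelled arrays and RI carried 8.75% and 8.38%. For *Os11g05470* the order was ST-labelled, RT-labelled, SI, RI and YL, with 60.4% of the sum in the first and 19.2% in the second. RT-labelled and RI as neighbours for *Os04g33570*, and SI and RI as neighbours for *Os11g05470*, did not differ beyond their spread. In tissue samples, fewer cells of a type and less RNA per cell cannot be told apart, and the tips were cut at different lengths.

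Between the tips, *Os04g33570* was 8.88-fold higher on the ST-labelled arrays as a ratio of mean signals (log2 difference 3.34, standard error 0.48, from the limma fit of all 15 arrays). *Os11g05470* was 3.15-fold higher (log2 difference 1.83, standard error 0.70). For both genes every ST-labelled array lay above every RT-labelled one, as in 6.52% of all tested probe sets. Over all tested probe sets, 0.864% were called different between the tips and 0.192% were called higher on the ST-labelled arrays, a call being an adjusted p under 0.05 with a change over 2-fold. Nothing is read from these shares for the CEN-like genes, which were listed for this contrast. Counting every tested probe set, 23 had a larger log2 difference in the same direction than *Os04g33570* and 212 had a larger one than *Os11g05470*.

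Against RI, *Os04g33570* was 9.27-fold higher on the ST-labelled arrays as a ratio of means (log2 difference 3.24, standard error 0.48). SI and YL had no array above the cutoff for this gene, so that the difference is given as a bound, the geometric mean of the ST-labelled arrays over the cutoff. By that bound the ST-labelled signal was at least 8.84-fold higher than in SI and in YL. For *Os11g05470* the bound was at least 2.94-fold against RI, SI and YL alike.

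Within the 58 listed probe sets, *Os04g33570* stood near the top for the ratio between the tips. Ordered by the ratio of ST-labelled over RT-labelled means, it took rank 4 of 58, and *Os11g05470* took rank 18. The median ratio of the 58 was 2.26. All 58 had ST-labelled arrays above all RT-labelled ones, in a list chosen for high signal there, against 6.52% of all tested probe sets.

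**Figure D2:**
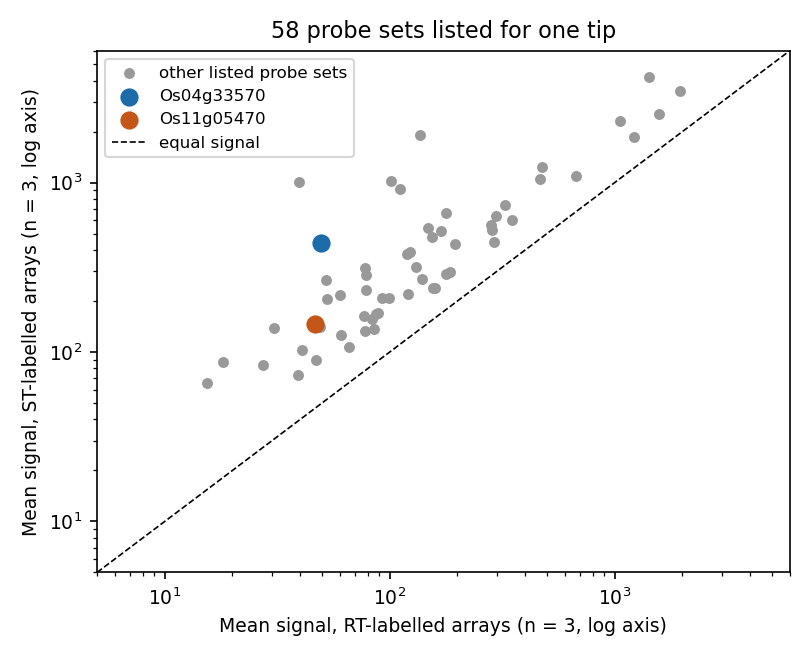
Mean signals (n = 3) of the 58 listed probe sets on the RT-labelled and the ST-labelled arrays, log axes in arbitrary intensity units, with the CEN-like genes marked. All 58 have higher means on the ST-labelled arrays, and *Os04g33570* (439 against 49.4) lies farther from equality than *Os11g05470* (147 against 46.6).

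Markers of green tissue and of dividing cells were compared between the same tip arrays. Over 10 probe sets of 7 photosynthesis genes, the summed signal ranged from 572 to 778 in the ST-labelled and from 3677 to 4146 in the RT-labelled samples. It ranged from 1910.3 to 5148 in RI, from 18591 to 24950.3 in SI and from 43360 to 58995 in YL. Between the tips, 7 of 10 were called higher on the RT-labelled arrays (limma), against 0.671% of all tested probe sets, and 0 were called lower. In 9 of 10 every RT-labelled array lay above every ST-labelled one, as in 18.3% of all tested probe sets, and none of the 10 was at 0 on any array. These probe sets were matched through the study's lists of tissue-enriched probe sets and of differences between the tips, made on these same arrays. The counts are therefore partly fixed by that choice, and nothing is read from them against the shares. *MCM3* (*Os05g39850*), a replication licensing factor of dividing cells, was at 372 ± 27.6 (SD, n = 3) in ST-labelled and 731 ± 111 in RT-labelled samples, above the cutoff on all tip arrays. Its signals ranged from 346 to 401 on the ST-labelled and from 603 to 800 on the RT-labelled arrays, without overlap. The log2 difference ST-labelled minus RT-labelled was −0.96 (standard error 0.60, limma fit). That fit pools the spread of all tissues, including SI, where *MCM3* was at 31.0 ± 34.0. *MCM3* came from the study's lists made on these same arrays, so its tip difference is given without a test. The part of either marker in the tip difference of the CEN-like genes was not tested.

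The comparisons among the RT-labelled arrays, RI, SI and YL do not involve the tissue for which the genes were listed, and these were tested. They are not fully free of the choice of the genes. The study's listing screened all tissues together and then set the listed tip against the other tissues, so these signals entered it. Both genes entered the tests only through the ST-labelled arrays, the one tissue with all 3 arrays above the cutoff. The 12 tests therefore compare tissues in which the signals were mostly not above background, and without the filter 2 of the 5 calls were lost (RT-labelled against SI for *Os04g33570*, adjusted p = 0.066, and SI against YL for *Os11g05470*, adjusted p = 0.073). Of 12 tests, 6 for each gene, 5 passed an adjusted p under 0.05 (Benjamini-Hochberg over all 21303 probe sets, limma) with a change over 2-fold, and 7 had an unadjusted p under 0.05. All 5 calls concerned signals at or under the cutoff in at least 1 of the tissues, and none survived when every value under the cutoff was set to it. An exact test of 3 arrays against 3 could not give a p below 0.10.

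Against YL, where neither gene had an array above the cutoff, both genes were called higher on the RT-labelled arrays. The log2 difference was 2.21 for *Os04g33570* (standard error 0.48, adjusted p = 0.0018, limma) and 3.06 for *Os11g05470* (standard error 0.70, adjusted p = 0.0025). With every value under the cutoff set to it, the log2 differences were 0.23 and 0.17, so their size rests on signals not above background. Among all tested probe sets, 45.1% were called in this comparison and 22.9% were called higher on the RT-labelled arrays. Both CEN-like genes were thus called in a comparison that calls a large share of all probe sets.

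The internodes gave less uniform results against YL. *Os04g33570* was called higher in RI (limma log2 difference from YL 2.31, standard error 0.48, adjusted p = 0.0018). *Os11g05470* differed by 1.77 (standard error 0.70, adjusted p = 0.053) and was not called. The background share for RI against YL was 37.5%, with 16.5% higher in RI. In SI against YL, *Os11g05470* was called higher in SI (log2 difference 1.90, standard error 0.70, adjusted p = 0.044), where neither tissue had an array above the cutoff, and *Os04g33570* had a log2 difference of 0.83 (adjusted p = 0.18). The background share there was 33.2%, with 16.2% higher in SI. Leaving out SI replicate 2 or 3 or any 1 YL array raised the adjusted p of *Os11g05470* to between 0.086 and 0.17.

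The RT-labelled arrays and the internodes differed less. *Os04g33570* was called higher on the RT-labelled arrays than in SI (log2 difference 1.37, standard error 0.48, adjusted p = 0.039, limma), but RT-labelled replicate 3 (22.3) lay below SI replicate 2 (35.0). Without RT-labelled replicate 1 or 2, or SI replicate 1 or 3, the adjusted p was 0.16, 0.086, 0.12 and 0.12. In this comparison 29.4% of all tested probe sets were called, with 15.4% higher on the RT-labelled arrays. *Os11g05470* did not pass there (log2 difference 1.16, 95% interval −0.36 to 2.68, adjusted p = 0.21). Against RI, the log2 difference was −0.10 for *Os04g33570* (95% interval −1.14 to 0.94, adjusted p = 0.88) and 1.29 for *Os11g05470* (95% interval −0.22 to 2.81, adjusted p = 0.16), and 31.5% of all probe sets were called. Both intervals hold 0, and both reach past a 2-fold change, downward for *Os04g33570* and upward for *Os11g05470*.

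Between the internodes, *Os04g33570* had a higher mean in RI. The log2 difference was 1.47 (standard error 0.48, 95% interval 0.43 to 2.52, not adjusted for the number of probe sets). It did not pass after adjustment (adjusted p = 0.2, limma), in a comparison that called 1.90% of all probe sets. *Os11g05470* had a log2 difference of −0.13 (95% interval −1.65 to 1.38, adjusted p = 0.98). The arrays of the internodes overlapped for this gene from their lowest values upward.

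The CEN-like genes had similar but not identical profiles. Over the 15 arrays, Pearson's r between their log2 signals was 0.855 and Spearman's rho 0.789, and over the 12 arrays that were not ST-labelled r was 0.67. These values describe arrays that share tissues and scaling, and include signals not above background. Among the 21302 other tested probe sets ordered by r, *Os11g05470* took rank 41 for *Os04g33570*, and *Os04g33570* took rank 615 for *Os11g05470*. An r over 0.9 was found for 8 probe sets with *Os04g33570* and 168 with *Os11g05470*.

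The 5 probe sets most like *Os04g33570* had r from 0.912 to 0.941. First was *Os06g0696400*, annotated as a xyloglycan endotransglycosylase, a class of enzymes that cut and rejoin cell wall xyloglucan, with means of 205 ± 60.6 on the ST-labelled arrays and 52.7 ± 6.92 on the RT-labelled arrays. Next was *Os01g12110*, an expressed protein (1012 ± 261 and 39.5 ± 14.2, r = 0.934). The fifth, *Os03g49880*, is the TCP factor known in *O. sativa* as *TB1*, which restrains the outgrowth of tiller buds, and it had means of 267 ± 36.6 and 52.2 ± 20.8. The third and the fourth (r = 0.926 and 0.913) carried no gene name, and had means of 940.4 ± 349 and 826 ± 297 on the ST-labelled arrays.

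The 5 probe sets most like *Os11g05470* had r from 0.951 to 0.967. They were *Os11g10590* (hypothetical protein), LOC4332778, *Os01g03360* (annotated as a Bowman-Birk trypsin inhibitor), a probe set without a gene name (r = 0.957) and *Os10g05750* (a proline-rich protein). Of the closest 5, 3 for *Os04g33570* and 2 for *Os11g05470* were themselves among the 58 listed probe sets. All 10 had their highest mean on the ST-labelled arrays. Without the ST-labelled arrays, r fell to between 0.659 and 0.890 for the first set and to between 0.902 and 0.954 for the second. No probe set stood among the closest 5 of both genes.

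**Figure D3:**
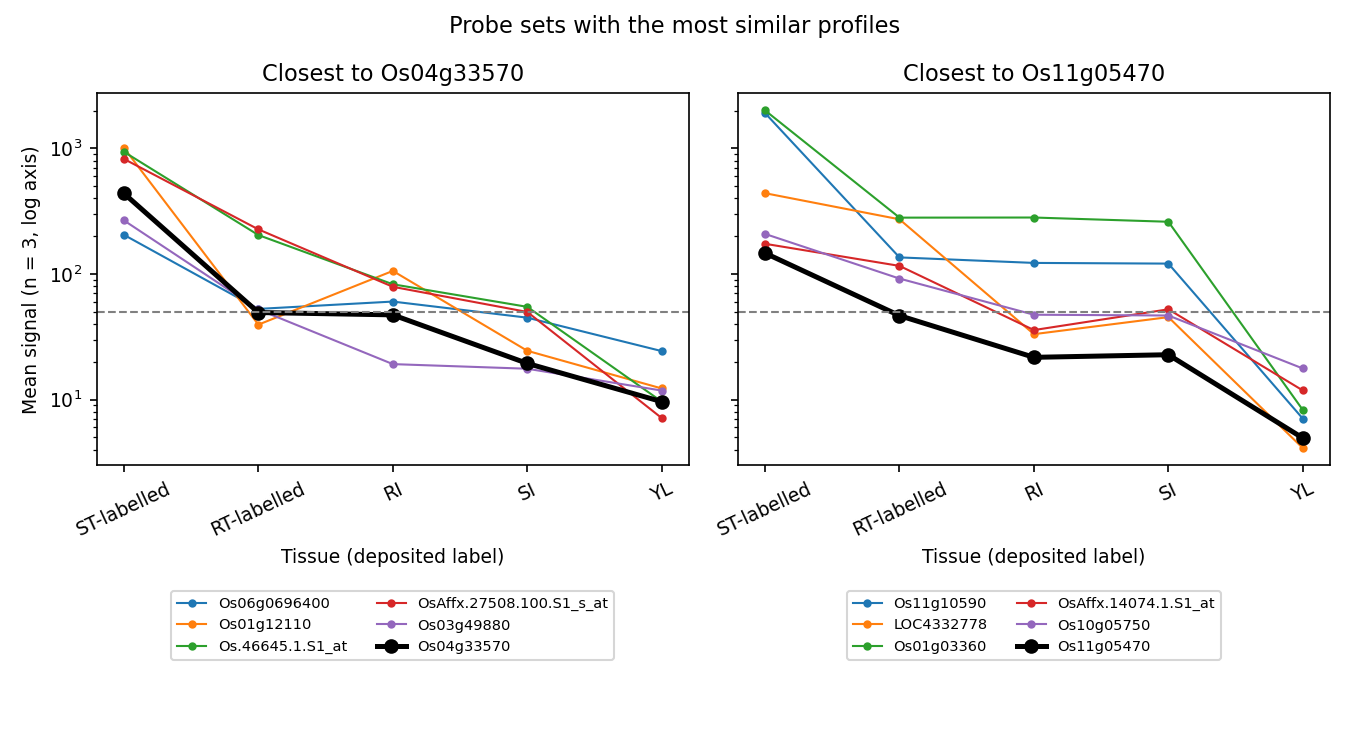
Mean signal (n = 3, log axis, arbitrary intensity units) of each CEN-like gene (black) and its 5 most similar probe sets by Pearson's r over the 15 arrays, by tissue, with the cutoff of 49.6 dashed. All 10 similar probe sets peak on the ST-labelled arrays; levels of different probe sets are not comparable, only their shapes.

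Of the pathway genes around CEN, few could be matched by name. The lists held 76 genes in 11 groups, and 16 genes in 7 groups were found. None of the 12 FT-like genes, the 4 FD-type bZIP factors that florigen binds, the 14-3-3 adaptors or the 7 upstream flowering regulators was matched, so the florigen side of the system is not described here. *MFT2*, of the MFT-like branch of the same protein family, was matched but not above the cutoff on any array. The matched genes named here other than *MFT2* came from the study's lists of tissue-enriched probe sets or of differences between the tips. Those lists were made on these same arrays, so the tissue patterns of these genes, also between the tips, are not independent of that choice.

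*MADS14* (*Os03g54160*, annotated as APETALA1), a floral identity factor of the kind that florigen induces, ran in the other direction from the CEN-like genes. Its mean was 26.1 ± 14.4 (SD, n = 3) on the ST-labelled arrays, where no array was above the cutoff. It was 253 ± 48.7 on the RT-labelled arrays and 229 ± 119 in RI. It reached 838 ± 455 in SI and 1813 ± 415 in YL. The log2 difference RT-labelled minus YL was −2.83 (standard error 0.49, limma fit). *MADS14* came from the study's lists made on these same arrays, so this difference is given without a test. *RFL* (*Os04g51000*), the rice relative of LEAFY, was above the cutoff on the RT-labelled arrays alone, at 121 ± 26.4, with 31.3 ± 3.66 on the ST-labelled arrays. With no YL array above the cutoff, it was at least 2.39-fold higher on the RT-labelled arrays than in YL. The study listed *RFL* among its shoot-tip-enriched genes on these same arrays, by its own naming of the tips. This difference is therefore given without a test.

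Meristem genes differed in where they peaked. *OSH1*, a KNOX homeobox gene that marks the shoot meristem and young stem, was at 1854 ± 153 (SD, n = 3) in ST-labelled and 1212 ± 196 in RT-labelled samples. Its internode means were 946 ± 154 (RI) and 833 ± 186 (SI), and its YL mean was 8.33 ± 2.98, not above background. The RT-labelled signal was at least 24.2-fold higher than in YL, given without a test since *OSH1* is among the 58 listed probe sets. *TB1* had its highest mean on the ST-labelled arrays, as given above, with 1 of 3 RT-labelled arrays and no RI, SI or YL array above the cutoff. *LOG* (*Os01g40630*), which activates cytokinin, peaked in YL at 316 ± 40.7. Its tip arrays ranged from 53.2 to 64.8 (ST-labelled) and from 42.7 to 56.2 (RT-labelled). *MCM3* was not above background in YL or RI. The CEN-like genes shared with *OSH1* and *TB1* the peak on the ST-labelled arrays and the low signal in YL, and differed from *OSH1* in their low internode signals. *OSH1* was only 1.53-fold higher on the ST-labelled than on the RT-labelled arrays, against 8.88-fold for *Os04g33570* and 3.15-fold for *Os11g05470*. *TB1* and *OSH1* were both listed by the study with the CEN-like genes, so the shared peak follows from that list.

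**Figure D4:**
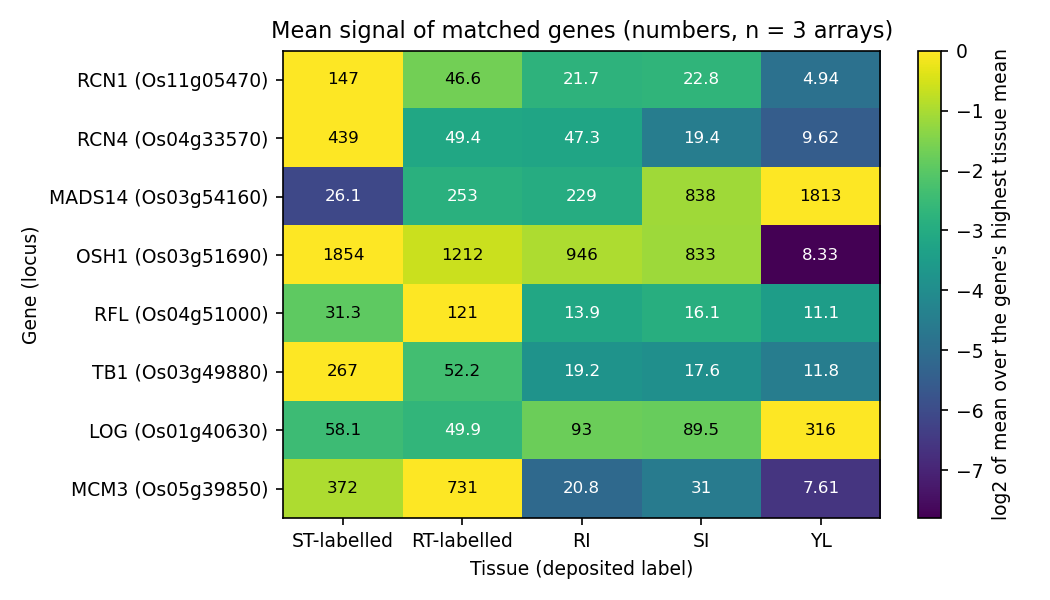
Mean signal (numbers, arbitrary intensity units, n = 3) of the CEN-like genes and 6 matched pathway genes in each tissue, with colour giving the log2 of each mean over that gene's own highest tissue mean. *RCN1*, *RCN4*, *OSH1* and *TB1* peak on the ST-labelled arrays, *RFL* and *MCM3* on the RT-labelled arrays, and *MADS14* and *LOG* in YL.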

How the data were processed

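Biotin-labelled cRNA of 15 samples was hybridised to 1-colour Affymetrix arrays. The deposited values are linear signal intensities: per the study's methods, the authors processed the scans with GCOS 1.4 at default settings and scaled all arrays together in dChip. No detection calls or scanner files were used. Controls (187 probe sets) were removed, leaving 57194. Values under 1 were set to 1 before log2. The 21303 probe sets above the cutoff on all 3 arrays of a tissue were tested in R 4.3.3 with lmFit and eBayes of limma 3.58.1, with 1 mean per tissue over all 15 arrays and Benjamini-Hochberg adjustment for each comparison. The fit was tested on simulated data. Means and figures were made with Python 3.11.15 and matplotlib 3.10.9.

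Named were the CEN-like genes, matched members of their family lists, up to 3 of the brightest of each other list and the 5 most similar probe sets of each gene. Of the photosynthesis list no member is named, and only the sum and counts of probe sets are given. The genes and lists were chosen with earlier results of these data known. Gene names came from the platform annotation (22436 probe sets with 1 symbol, 95 with several, 34850 with none) and from locus names in the study's tables (2613 probe sets). The ratios in those tables served only to read the listed direction between the tips, and were used in no test. No genome was given. Alternatives were other scalings, cutoffs, floors and designs, and each array left out in turn.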

Additional observations from a re-analysis of the deposited data

How the results depend on the processing

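Over 204 alternative fits of the 12 tests, 179 kept the direction and the side of the threshold, 20 lost a call, 5 gained one and none reversed. With values under the cutoff set to it, all 5 calls were lost: for *Os04g33570* the adjusted p (limma) was 0.31 for RT-labelled against SI, 0.28 for RT-labelled against YL and 0.83 for RI against YL, and for *Os11g05470* 0.34 for RT-labelled against YL and 1 for SI against YL. SI against YL for *Os11g05470* also gave 0.052 after quantile normalization, 0.073 without a filter, 0.12 with a floor of 8 and 0.063 from its 6 arrays alone. RT-labelled against SI for *Os04g33570* gave 0.066 without a filter and 0.16 from its 6 arrays alone. With array weights, RT-labelled against RI (0.0016) and RI against YL (7.7e-05) passed for *Os11g05470* and RI against SI (0.0014) for *Os04g33570*, but RI replicate 3 took a weight of 119 there. Leaving out 1 array gave adjusted p from 0.0067 to 0.16 for RT-labelled against SI and from 0.044 to 0.48 for RI against SI in *Os04g33570*, and from 0.0089 to 0.21 for RI against YL and from 0.0053 to 0.17 for SI against YL in *Os11g05470*. RI against SI passed without SI replicate 2 (0.044) and RI against YL without RI replicate 1 (0.0089). The cause of these changes was not tested.

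The log2 differences from the ST-labelled arrays kept their sign in all 136 alternatives, from 2.86 to 3.79 for *Os04g33570* and from 1.30 to 2.20 for *Os11g05470* between the tips. The count called between RI and SI ranged from 124 to 3069 (405 as reported), with 243 without RI replicate 3 and 772 without SI replicate 1, and that between the tips from 107 to 921 (184 as reported), with 107, 122 and 120 without ST-labelled replicate 1, 2 or 3 and 113 without RT-labelled replicate 1. The most similar probe sets shared 0 of 5 (*Os04g33570*) and 1 of 5 (*Os11g05470*) with those by Spearman's rho, and 0 of 5 for both without the ST-labelled arrays, an alternative chosen after seeing the data. At cutoffs of 29.9 and 62.4, *Os04g33570* was above on 9 and 4 of 15 arrays and *Os11g05470* on 7 and 4.

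Samples of the same replicate number were not treated as pairs, since the replicate numbers are not stated to pair tissues. Residuals of same-numbered arrays correlated over 0.1 in 6 of 30 pairs and under −0.1 in 7. The highest values were between RI and SI, 0.62 for replicate 1 and 0.44 for replicate 2, with 0.08 for replicate 3. A pairing of the internodes alone was not tested, and the tests of RI against SI make no allowance for it. The replicate block changed no call: the adjusted p (limma) was 0.044 for RT-labelled against SI in *Os04g33570* and 0.047 for SI against YL in *Os11g05470*.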
